A study of Mus musculus with 2 samples.

Results

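In newborn mouse heart, 2943 CTCF peaks lay more than 100 kb from every protein-coding gene, in gene deserts and other long intergenic stretches. They were 6.78% of the 43380 peaks on chromosomes 1 to 19 of the authors' optimal list (exact binomial 95% interval 6.55 to 7.02, which covers counting error only), a list of 44533 peaks in all. A peak was kept when its summit was over 100 kb from the nearest edge of every record that GENCODE M21 calls protein-coding, so its place, not its signal, chose it. Of the other peaks, 22987 lay inside a protein-coding record and 17450 lay outside records at up to 100 kb. The 3 peaks that only just passed had summits 100024, 100033 and 100226 bp from a record, with signal values of 56.5, 148 and 61.9. The 3 that only just failed lay at 99841, 99875 and 99942 bp, with signal values of 24.6, 13.6 and 62.7. These peaks are called far peaks here, and the land over 100 kb from a record far territory.

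The maps come from ChIP-seq, in which DNA pulled down with an antibody, here against CTCF, is sequenced; the material was heart tissue of B6NCrl mice at postnatal day 0. All libraries belong to 1 group, CTCF antibody on heart chromatin, with no genetic change or treatment named, and are called replicate 1 and replicate 2. Both carry the same tissue and donor labels, so their spread, and any p-value from it, may be technical; the sex was not collected. The authors called a relaxed list of 300000 peaks in each library and in both together, and kept those that repeat by the irreproducible discovery rate (IDR). Signal values are the authors' peak heights on an unnamed scale, and read depth is unknown. Whole heart mixes muscle, endothelial and other cells, so a low peak can be weak in all cells or strong in few.

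CTCF is a zinc finger protein that binds a long, oriented DNA motif and stalls cohesin, the ring complex that extrudes chromatin loops. Loop anchors in mammals are mostly pairs of CTCF motifs that point towards each other, called convergent. Gene deserts often flank developmental regulators and hold their distant enhancers, and CTCF sites within them set borders between neighbouring regulatory domains.

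The sequences under the peaks show what CTCF met there. Each run below is 54 bases of the mm10 genome (GRCm38), read 5′ to 3′ on the strand of the motif, and the capitals mark the 14 bases that align with the CTCF core consensus. The first 4 are the strongest far peaks.
Npvf to Nfe2l3 (chr6:50937288-50937341, minus strand): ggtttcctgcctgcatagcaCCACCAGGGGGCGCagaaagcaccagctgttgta
Ppp6c to Lrp1b (chr2:39373224-39373277, minus strand): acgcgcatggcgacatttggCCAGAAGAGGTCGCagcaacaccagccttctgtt
Dusp6 to Csl (chr10:99615995-99616048, minus strand): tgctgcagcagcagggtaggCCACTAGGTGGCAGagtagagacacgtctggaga
A1bg to Myc (chr15:61157680-61157733, plus strand): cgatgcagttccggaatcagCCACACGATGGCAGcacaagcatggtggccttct
The Npvf and Dusp6 cores have 0 mismatches to the consensus, and those beside Ppp6c and Myc have 2. The next 2 lie in deserts beside genes of the heart.
Kcnj2 to Sox9 (chr11:111537822-111537875, plus strand): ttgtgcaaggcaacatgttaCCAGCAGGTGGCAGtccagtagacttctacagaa
Slc8a1 to Pkdcc (chr17:83025475-83025528, plus strand): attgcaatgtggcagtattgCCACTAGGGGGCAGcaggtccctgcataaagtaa
Both cores have 0 mismatches. The next 2 are among the farthest bound sites, with 0 and 1 mismatches.
Pcdh20 to Pcdh9 (chr14:90433313-90433366, plus strand): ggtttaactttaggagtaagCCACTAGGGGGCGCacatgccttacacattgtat
Pcdh7 to G6pd2 (chr5:59996966-59997019, minus strand): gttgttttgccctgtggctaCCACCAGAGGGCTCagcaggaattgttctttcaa
The last 3 have 0 mismatches too but carried no optimal peak, and were the farthest such sites away from antigen receptor loci.
Lingo2 to 1700009N14Rik (chr4:38190192-38190245, minus strand): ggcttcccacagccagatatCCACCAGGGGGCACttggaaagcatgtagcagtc
Khdrbs3 to Fam135b (chr15:70278942-70278995, minus strand): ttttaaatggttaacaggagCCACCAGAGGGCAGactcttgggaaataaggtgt
Cntn5 to Jrkl (chr9:12147049-12147102, plus strand): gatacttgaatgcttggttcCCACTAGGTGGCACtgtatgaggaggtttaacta
Their distances to the nearest protein-coding record were 1238, 1153 and 1096 kb.

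The CTCF core lay under most far peaks, slightly more often than under the others. A core with at most 2 mismatches lay within 50 bp of the summit in 2221 of the 2943 far peaks, 75.5% (95% interval 73.9 to 77.0), against 73.3% of the other peaks. Windows shifted by 1000 bp from the far summits held such a core in 2.00% and 1.94% of cases, and those of the other peaks in 2.87% and 3.03%. In each library's own 44533 strongest peaks the share was 74.96% of far and 73.2% of other peaks in replicate 1, and 73.7% and 70.9% in replicate 2. Among the other peaks outside records and not at a 5′ end, the share was 79.3%, above that of the far peaks. The far share was higher than that of all other peaks on 13 of 19 chromosomes. With at most 1 mismatch the gap to the other peaks was 0.748 percentage points, against 2.18 with at most 2. For this and each later comparison made in both libraries, both went the same way, and a two-sided exact sign-flip permutation test over 2 libraries gave p = 0.5, the smallest it can give.

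At matched signal, weak far peaks carried the core more often than weak peaks elsewhere. In the lowest decile of all peaks by signal, 50.3% of 332 far peaks had a core, against 42.7% of the others. In the second decile the shares were 65.8% and 56.7%. In the top decile they were 93.2% of 133 far peaks and 91.8% of the others, so the gap was wider among weak peaks. In decile 7 the order was the other way, 82.4% of 296 far peaks and 82.6% of the others. The shares in single libraries were not computed by decile. Nor were those of the other peaks outside records and not at a 5′ end, whose share over all deciles was above the far one.

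Far peaks sat in sequence that was poorer in G, C and CpG. The median GC content of the 201 bp around the summit was 46.3%, against 49.8% for the other peaks. CpG, the dinucleotide that is methylated in mammalian DNA, was missing from that window in 18.96% of far peaks and 11.7% of the others. A CpG lay within the core in 27.1% of far cores and 34.2% of other cores. Cores in repeat-masked sequence were less common among far peaks, 14.5% against 18.4%. Far peaks whose core was masked had a median signal value of 25.8, and those with an unmasked core 66.0. The other peaks showed a like drop, 37.6 against 96.5, so it was not particular to far peaks.

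CTCF peaks were sparse in far territory. It made up 663 Mb, 27.7% of the known bases of chromosomes 1 to 19, but held 6.78% of the peaks. Its density was 4.44 peaks per Mb, against 23.3 per Mb in the remaining territory, a ratio of 0.190. Taking each library's own 44533 strongest peaks, 2971 were far in replicate 1 and 2909 in replicate 2, and the ratio was 0.190 ± 0.00315 (SD, n = 2). The density was lower in far territory on 19 of 19 chromosomes, from a ratio of 0.128 on chromosome 19 to 0.295 on chromosome 13.

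Outside protein-coding records, the density fell with each step away from genes. It was 23.2 peaks per Mb inside records, below the 39.4 outside but within 10 kb of a record. From 10 to 50 kb it was 18.9, and from 50 to 100 kb 11.7. Far territory began with 7.47 per Mb from 100 to 200 kb (1474 peaks) and went down to 4.17 between 200 and 500 kb (1100 peaks). It was 2.17 per Mb between 500 and 1000 kb (299 peaks) and 1.09 beyond 1000 kb (70 peaks), and the median far peak was 199.7 kb from a record. Each step was larger than the spread between libraries, whose SD was at most 0.197 peaks per Mb in any class. Base composition moved along with it: GC content of the territory fell from 43.7% within 10 kb to 36.9% beyond 1000 kb, and its repeat-masked share rose from 36.1% to 44.2%. The part of base composition or repeats in the density was not tested.

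**Figure D1:**
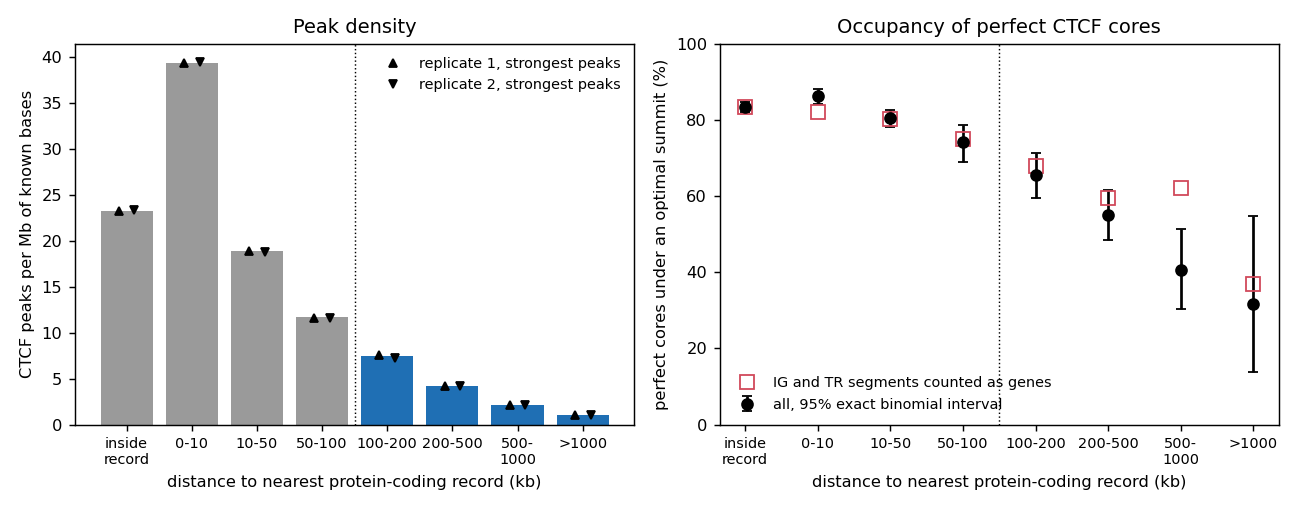
CTCF peaks per Mb of known bases (left, bars, with triangles for each library's own strongest peaks) and the share of perfect CTCF cores that carry an optimal summit (right, points with exact binomial 95% intervals for counting error) by distance to the nearest protein-coding record in kb. Blue bars and classes right of the dotted line are far territory, where density went from 7.47 to 1.09 per Mb; open squares count immunoglobulin (IG) and T cell receptor (TR) segments as genes.

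Fewer binding sequences were on offer in far territory, and fewer of them were bound. Perfect cores, those with 0 mismatches on either strand, numbered 614 in far territory, 0.926 per Mb, against 3.29 per Mb elsewhere. An optimal summit lay within 50 bp of 348 of the 614, 56.7% (95% interval 52.7 to 60.6), against 82.9% of the 5709 others. The ratio of the 2 shares was 0.683 for the optimal list, 0.683 in replicate 1 and 0.675 in replicate 2 (0.679 ± 0.00537, SD, n = 2). Leaving out repeat-masked cores gave 62.1% of 506 and 84.7% of 5090. Masked perfect cores were bound in 31.5% of 108 and 68.8% of 619 cases. With exactly 1 mismatch, 9980 cores lay in far territory and 9.32% were bound, against 28.1% of 44868 elsewhere. That is a ratio of 0.332, so the gap as a ratio was wider for these looser cores. Of them, 5329 in far territory and 15508 elsewhere were repeat-masked. Leaving those out gave a ratio of 0.487, against 0.733 for unmasked perfect cores.

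Outside records, occupancy also fell with distance, but not at every step once antigen receptor segments were counted as genes. It was 83.5% inside records, and outside them 86.3% within 10 kb, 80.5% from 10 to 50 kb and 74.1% from 50 to 100 kb. In far territory it was 65.7% up to 200 kb, 55.1% between 200 and 500 kb, 40.7% between 500 and 1000 kb and 31.8% beyond 1000 kb, where only 22 cores gave the value. Antigen receptor loci weighed on the last classes, because their variable segments are not recorded as protein-coding. Of the far perfect cores, 67 lay within 100 kb of such segments and 4 of these were bound. With the segments counted as genes, occupancy in far territory was 62.9% of 547 cores. It was then 68.0% of 253 cores up to 200 kb and 59.4% of 217 between 200 and 500 kb. The class of 500 to 1000 kb had 62.1% of 58 cores, so occupancy did not fall at that step. The fall beyond 1000 kb then rested on 19 cores at 36.8%. Of the 266 unbound perfect cores in far territory, 69 (25.9%) had a summit of the relaxed pooled list. That list holds 300000 peaks before the IDR filter, so a summit there need not be enrichment. The share for unbound cores elsewhere was not computed.

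The same core sequence carried an optimal peak at some far sites and none at others. Away from antigen receptor segments, far territory held 59 different perfect cores, and 43 of them occurred both with and without an optimal peak. The most frequent, CCACTAGAGGGCAC, was bound in 6 of 32 far copies and in 77 of 98 copies elsewhere. In contrast, CCACTAGATGGCAG was bound in 22 of 23 far copies and 132 of 136 others. The core of the Sox9 desert peak shown above, CCAGCAGGTGGCAG, was bound in 11 of 20 far copies and 191 of 229 others. Among the cores named here, the gap thus ranged from almost none to the larger part of the copies. Of 39 cores with at least 5 copies on both sides, 32 were bound less often in far territory and 6 more often, with a median of 62.5% against 83.4%. Copies in repeats were not separated in these counts, and the cores named were chosen after their values were seen.

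Far peaks were weaker than the rest. Their median signal value was 48.6 (quartiles 24.4 and 101.4) in the pooled list, against 62.8 (27.7 and 132) for the other peaks. In replicate 1 the medians were 27.2 and 35.5, and in replicate 2 they were 22.6 and 29.9. The log2 ratio of far to other medians was -0.38 in replicate 1 and -0.40 in replicate 2 (mean -0.39 ± 0.0153, SD, n = 2), larger than the spread between libraries. Against other peaks outside records the gap was wider, -0.67 ± 0.00895, and against peaks inside records it was narrower, -0.19 ± 0.0169. The far median was lower on 18 of 19 chromosomes, the exception being chromosome 15 with 70.7 against 66.2. Among peaks at or above the list median the pooled log2 ratio was -0.21, and with a limit of 50 kb it was -0.22, against -0.37 as defined here.

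Far peaks were scarce among the strongest peaks, and the gap was wider for peaks with a core. Far peaks made up 7.65% of the weakest decile of all peaks and 3.07% of the strongest decile, and 18 of the 1000 strongest (1.8%). With a core, the far median was 57.7 and that of the others 82.6, a log2 ratio of -0.49 ± 0.0360 over the libraries. Without a core the medians were 29.0 and 31.3, a log2 ratio of -0.14 ± 0.0248. Within far territory the median changed little at first, 49.6 up to 200 kb and 50.2 between 200 and 500 kb. Past 500 kb it was 41.8, both below and above 1000 kb.

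**Figure D2:**
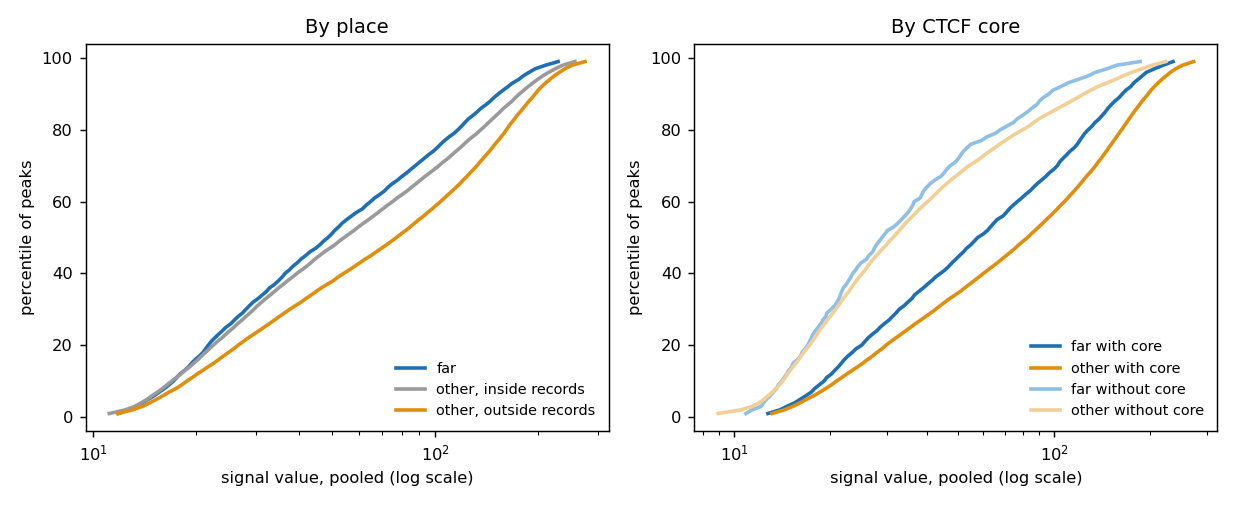
Cumulative share of peaks (percentile) by pooled signal value on a log scale, for far peaks and other peaks inside and outside protein-coding records (left) and for peaks with and without a CTCF core (right). From the 12th percentile up the far curve lies left of both others. Below that it lies between them, except at percentile 1, where it lies right of both. The 2 curves with a core are farther apart (medians 57.7 and 82.6) than those without (29.0 and 31.3).

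Far peaks repeated between the libraries about as well as the rest. Both libraries had a relaxed peak at 2857 of 2943 far peaks (97.1%), against 97.0% of the others, with summits within 100 bp taken as a match. Across those far peaks, Spearman's rho of the 2 signal values was 0.927, against 0.949 for the others. It describes peaks that share libraries and a common IDR selection, and depends on the signal range. Replicate 2 was lower than replicate 1 by a median log2 ratio of -0.24 in far peaks and -0.22 in the others, a shift shared by both.

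**Figure D3:**
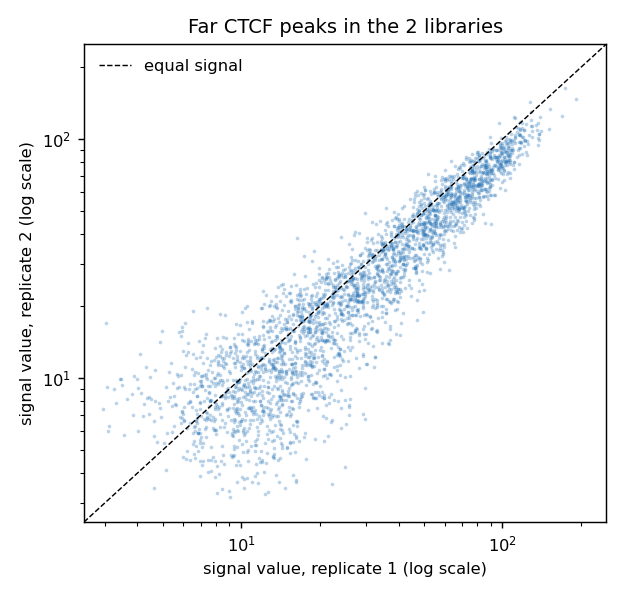
Signal value of each of the 2857 far peaks found in both libraries, replicate 1 on the x axis and replicate 2 on the y axis, both on log scales, with the line of equal signal. Strong peaks lie close together just under the line and the scatter widens towards weak peaks.

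Far peaks stood alone. The nearest other optimal summit was a median of 40.8 kb away (quartiles 11.3 and 106 kb), against 8.41 kb for the other peaks (2.97 and 20.7 kb). The ratio of medians was 4.85, and 4.64 and 4.81 in the own lists of replicates 1 and 2 (4.72 ± 0.121, SD, n = 2). Only 84 far peaks (2.85%) had a neighbour within 1 kb, against 8.56% of the others. At the other end, 784 (26.6%) had none within 100 kb, against 2.22% of the others. This spacing restates the low density in part, since both count the same summits. The loneliest far peak, between 4931408C20Rik and Gm597 on chromosome 1, was 1714 kb from the next summit; it had a core and a signal value of 23.4 (8.39 and 12.9 in the libraries).

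Neighbouring far peaks seldom pointed at each other. Of 561 pairs of neighbouring far peaks 50 to 500 kb apart, each with exactly 1 best core, 104 were convergent, 18.5% (95% interval 15.4 to 22.0). Another 351, 62.6%, were tandem, with both cores on 1 strand, and 106 were divergent. Pairs at the same spacing with a protein-coding record between or around them were convergent in 1361 of 4211 cases, 32.3%, and tandem in 48.2%. Pairs in 1 intergenic interval that were not both far lay between, at 23.5%. In the own lists of the libraries the convergent share of far pairs was 20.1% and 17.9%, and that of pairs with a record 32.4% and 32.1%. The difference was -13.3 ± 1.39 percentage points (SD, n = 2), larger than the spread between libraries, and it had this sign on 18 of 19 chromosomes.

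The gap in convergence depended on spacing and signal. With gaps of 50 to 100 kb, 19.3% of 202 far pairs were convergent against 28.2% of all other pairs, and with gaps of 200 to 500 kb 20.3% of 148 against 38.9%. The far share thus moved by less than its counting intervals, while that of the others rose with spacing. At 5 to 50 kb the shares were close, 18.3% of 388 far pairs and 21.7% of pairs with a record. Pairs in 1 intergenic interval that were not both far had 17.0% there, below the far share. With both peaks at or above the median signal and gaps of 50 to 500 kb, 12.8% of 125 far pairs were convergent (95% interval 7.497 to 19.95), against 33.5% of pairs with a record. Pairs in 1 interval that were not both far came to 15.2% (11.1 to 20.2), which overlaps the far interval, so a low share was common to intergenic pairs. Far cores pointed towards the nearer protein-coding gene in 965 of 2215 cases, 43.6% (95% interval 41.5 to 45.7), and away from it in the rest. The share was close to this for peaks from 10 to 50 kb (44.2%) and from 50 to 100 kb (44.7%) from a record, and higher within 10 kb (49.4%), so it was not particular to far peaks.

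**Figure D4:**
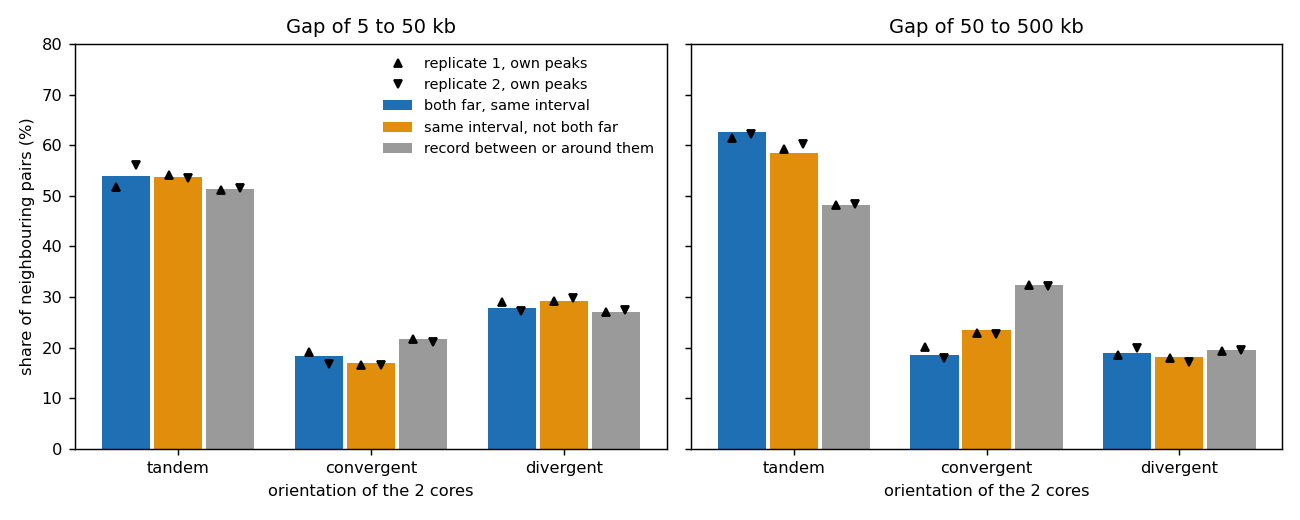
Share of neighbouring peak pairs by the orientation of their cores (tandem, convergent, divergent) for gaps of 5 to 50 kb (left) and 50 to 500 kb (right), with bars for the optimal list and triangles for each library's own peaks. In the wider gap, far pairs (blue) were convergent in 18.5% and pairs with a protein-coding record (grey) in 32.3% of cases.

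Some deserts held long runs of far cores on 1 strand, counted with far peaks that lack a core left out. The longest had 8 successive cores on the minus strand over 947 kb between Adamts5, a protease of the extracellular matrix, and N6amt1. A run of 7 plus-strand cores over 286 kb lay between Olfr1507 and Dad1, and a run of 6 minus-strand cores over 1914 kb between Khdrbs3 and Fam135b. These intervals were picked for their runs, after the values were seen, and no expected run length was computed.

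Far from protein-coding genes did not mean far from every transcript. A long noncoding RNA record covered 482 far peaks (16.4%), and 140 (4.76%) lay within 1 kb of the 5′ end of some record other than a protein-coding one, 11 of them at antigen receptor segments. In all, 2421 lay in no record of any kind, and 406 were more than 100 kb from every record. The median signal value was 47.7 inside long noncoding records, 48.8 in no record and 40.8 at the 5′ ends of such records. At those 5′ ends the library medians were 26.2 and 19.8, against 27.3 and 22.8 for the other far peaks, so both libraries were lower there. Immunoglobulin or T cell receptor segments lay within 100 kb of 32 far peaks, whose median was 35.9.

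The far peaks were spread over many intervals between protein-coding genes. Of 1371 intervals with any far territory, 881 held at least 1 far peak and 490 held none. A single far peak was found in 277, 2 to 4 in 387 and 5 or more in 217, which together held 1569 of the far peaks. The 31 intervals with 10 or more held 376. Empty intervals were short, with a median of 80.9 kb of far territory against 409 kb for those with a peak. Among the 190 intervals with at least 1 Mb of far territory, 13 were empty and the median density was 2.14 peaks per Mb.

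Mki67 to Mgmt on chromosome 7 held the most far peaks, 20 over 0.978 Mb of far territory, and both libraries' own lists gave 20 as well. Mki67 encodes the Ki-67 proliferation antigen and Mgmt a DNA repair enzyme. Their signal values had a median of 46.8 and reached 240, and 13 had a core. Olfr1507 to Dad1 followed with 19, or 20 and 17 in the libraries. That interval is the T cell receptor alpha and delta locus, with 201 segments, so the peaks are far only from records called protein-coding. Of its 17 cores, 15 were on the plus strand.

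The other intervals at the top of the count lay beside genes of varied roles. Rps24 (a ribosomal protein) to Zmiz1 (a transcriptional coactivator) held 17, or 23 in each library's own list. Sdk2 (an adhesion protein) to Rpl38 (a ribosomal protein) held 15, as did Plekhb2 to Hs6st1, a sulfotransferase of heparan sulfate. Slc4a3 to Epha4, an ephrin receptor, and Gm5148 to Ankrd50 held 14 each, Gadd45g to Diras2 and Myc to Gsdmc 13 each, and Npvf to Nfe2l3 12. Their strength differed widely. The median was 126 in Npvf to Nfe2l3 and 28.6 in Sdk2 to Rpl38, and between 31.2 and 49.6 in the other 8 of these 10.

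The strongest far peaks lay beside genes of unlike roles. The first, with a signal value of 337 (191 in replicate 1 and 147 in replicate 2), was at chr6:50937198-50937402, 283 kb from Npvf, a neuropeptide precursor, and 495 kb from Nfe2l3, a leucine zipper factor. The second, 336 (174 and 163), lay at chr2:39373153-39373391, 147 kb from Ppp6c, a phosphatase subunit, and 1222 kb from Lrp1b, of the LDL receptor family. The third, 292 (169 and 125), lay at chr10:99615896-99616084, 142 kb from Csl and 349 kb from Dusp6, a phosphatase that switches off ERK signalling. It fell in the long noncoding record Gm20110, while the first and second fell in no record. The fourth, 287 (152 and 134), lay at chr15:61157622-61157814, 235 kb from A1bg and 828 kb from Myc, the growth regulator. In all 4, replicate 1 was the higher library, and the SD of the 2 values ranged from 8.01 to 31.5.

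Ranks 5 to 15 ran from 268 down to 243. They included those between Pfn2 and Tsc22d2, Tnks and Ppp1r3b, Zfp462 and Rad23b, Tshz3 and Zfp536, Ccdc54 and Cblb, and Msx2 and Drd1, followed by Zfhx3 and Pmfbp1, Nckap5 and Mgat5, Samd12 and Tnfrsf11b, and Ubash3b and Sorl1. Several of these neighbours are developmental transcription factors (Tshz3, Zfp536, Msx2 and Zfhx3). All 15 strongest had a core with at most 2 mismatches, on the minus strand in 11 and the plus strand in 4. Their distance to the nearest other summit ranged from 1.73 kb to 209 kb.

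The 10 farthest far peaks differed widely in strength. The peak with the greatest distance, 2195 kb from Pik3c3 and 2324 kb from Celf4 on chromosome 18, had a signal value of 106 (59.9 and 47.4). A second in the same interval had 42.7. In the Pcdh20 to Pcdh9 desert, between 2 protocadherins, peaks 1999 and 1962 kb from a record had 33.8 (19.1 and 15.6) and 92.8 (49.7 and 44.2). The Pcdh7 to G6pd2 peak at 1812 kb had 59.9, the Tenm2 to Mat2b peak 26.0 and the Slc10a2 to Efnb2 peak 21.9. Sel1l to Flrt2, the latter an adhesion and guidance protein, held 2 of the 10 farthest, at 122 and 36.5, and D3Ertd751e to Pcdh10 the last, at 45.9. Thus weak and strong peaks occurred even there, and 4 of the 10 were above the far median of 48.6. A core was present in 7 of the 10.

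Deserts of heart genes showed unlike layouts. Between Kcnj2, the inward rectifier potassium channel, and Sox9, a transcription factor of cartilage and heart valves, 8 far peaks lay in 1705 kb. The 5 between 369 and 461 kb from Kcnj2 had signal values of 92.3, 152, 129, 155 and 166, and the other 3, at 576, 1027 and 1133 kb, had 116, 60.3 and 103. The first 3 cores pointed left towards Kcnj2 and the next 3 right towards Sox9, so the cluster was divergent at its centre. Its strongest peak had 81.4 in replicate 1 and 85.7 in replicate 2.

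Beside Slc8a1, the sodium-calcium exchanger of the heart muscle membrane, the far peaks gathered at the other end of the desert, towards Pkdcc. Of 7 in 1477 kb, 5 lay 1119 to 1306 kb from Slc8a1 with signal values of 189, 122, 114, 243 and 165. The cores of the first 3 of these pointed left and those of the next 2 right. The other 2 far peaks had 38.2 and 22.7, so the 5 strongest far peaks were all on the Pkdcc side. An optimal peak 49.2 kb from Slc8a1, not far by the rule, had 142.

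Beside Hand2, a factor of the ventricles, 3 far peaks had 21.3, 19.9 and 116, all with plus-strand cores. Both low values were low in both libraries, at 12.6 and 6.32, and 8.46 and 9.80. In the Npvf to Nfe2l3 interval the 12 peaks formed tight groups, with 4 of them between 283 and 286 kb from Npvf.

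**Figure D5:**
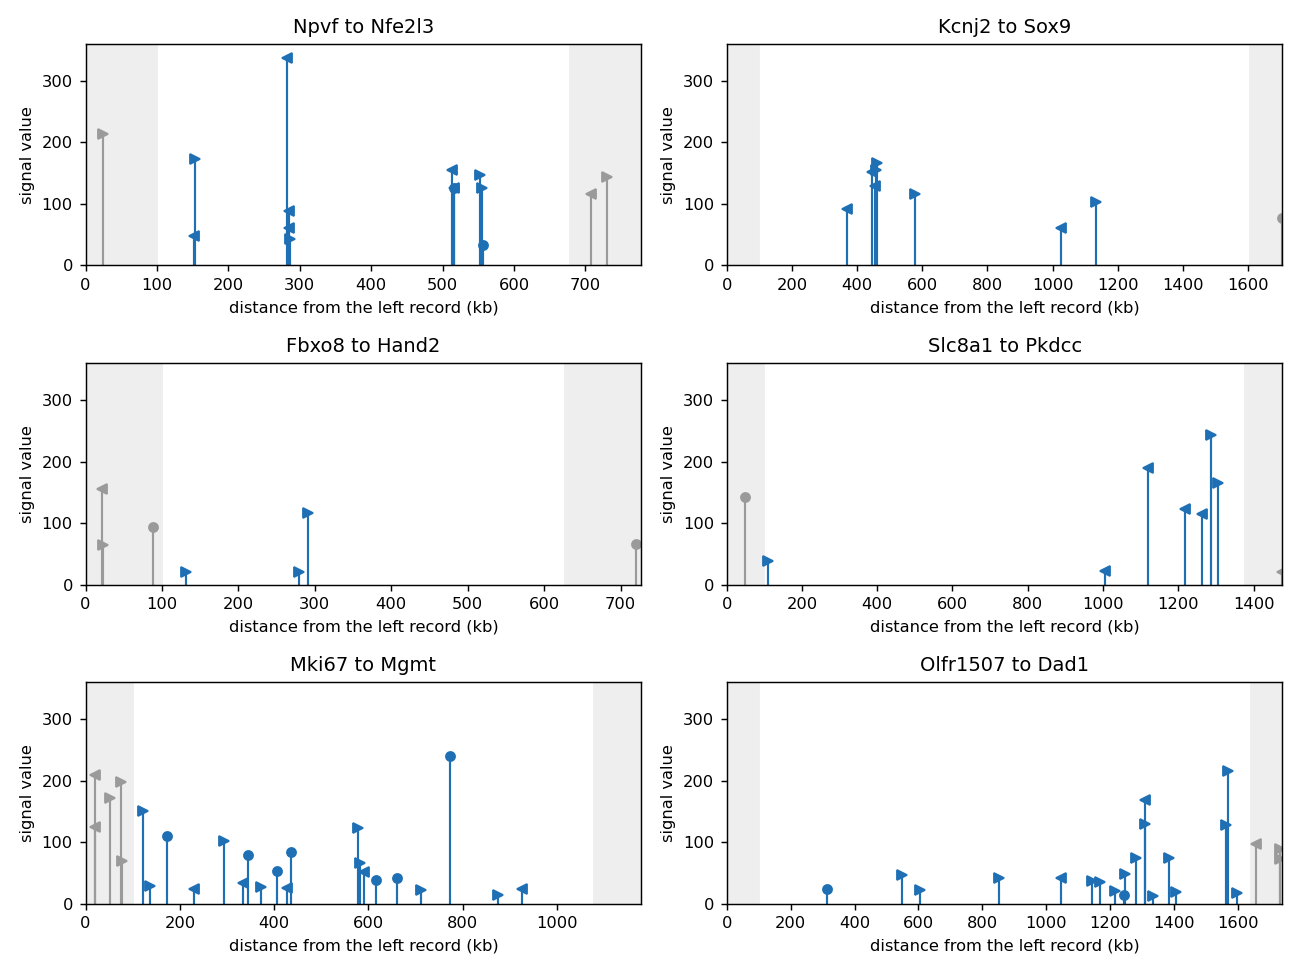
CTCF peaks in 6 intervals between protein-coding records, each drawn as a line at its distance from the left record (kb) with its pooled signal value as height. Blue peaks are far and grey ones within 100 kb (shaded) of a record; triangles point in the direction of the core and circles have none, so the 15 plus-strand cores of the Olfr1507 to Dad1 interval point right.

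Other named desert genes had far peaks too. Myc was flanked by 18, 5 on the A1bg side with a median signal value of 103 and 13 on the Gsdmc side with a median of 49.6. Sox2, a factor of neural and stem cells, and Bmp2, a secreted growth factor, had 9 each, with strongest peaks of 174 and 149. Tbx18, a factor of the epicardium and sinus node, had 6 (strongest 138) and Tbx20, a factor of heart muscle, 3 (strongest 143). Nr2f2, an atrial and venous factor, and Meis2 had 4 each, the strongest at 202 and 65.7.

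Genes beside far peaks were counted by list, of which 8 were drawn up for this tissue. Of 20780 protein-coding genes, 1563 (7.52%) flanked an interval with a far peak, and 67.2% of the 2326 beside far territory did. A gene can flank a far peak only if it lies beside far territory, so shares are given of the list and of its genes beside far territory. The list of developmental factors was chosen for its deserts, which makes its high count no independent finding.

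Among those developmental factors, 35 of 51 flanked a far peak, 83.3% of the 42 beside far territory. Of 30 cardiac transcription factors, 12 did, among them Gata6, Hand2, Irx2, Isl1, Mef2c, Myocd, Sox17, Tbx20, Tbx3, Tbx5 and Zfpm2. Only 13 of these factors lay beside far territory, and Hey2 was the one without a peak. The strongest far peak beside Mef2c, a factor of heart and skeletal muscle, had 216 (112 and 102), and that beside Isl1, a factor of the second heart field, 184 (102 and 80.6). These lay 1560 and 1068 kb from the genes.

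Protocadherins and cadherins join cells to each other. Of 23 such genes outside the protocadherin clusters, 21 flanked a far peak, out of 22 beside far territory, with a median of 7 far peaks per gene, against 3 over all flanking genes. The strongest were in intervals flanked by Pcdh17 (224), Pcdh7 (175) and Cdh2, N-cadherin of the heart muscle junctions (170). These peaks lay 4227, 2921 and 377 kb from those genes. The Pcdh17 peak was nearer to Olfm4 (193 kb) and the Pcdh7 peak nearer to Stim2 (676 kb). Of 48 synaptic and axonal adhesion or guidance genes, 32 flanked a far peak, 84.2% of the 38 beside far territory, with a median of 6.5. Lingo2 (217), Dcc (190) and Tenm3 (177) led, with those peaks 334, 832 and 1450 kb from the genes. Desert length, which differs between genes, was not taken into account in these medians.

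Genes of heart contraction lay beside far territory about as often as other genes. Of 30 sarcomere and calcium handling genes, 3 lay beside far territory, as did 2326 of all 20780 genes, and all 3 had far peaks: Slc8a1, Gja1, the connexin 43 gap junction protein, and Ryr2, the calcium release channel. Their strongest peaks had 243, 146 and 57.6, at 1287, 599 and 611 kb from the genes. Of 25 potassium channels, 11 had far peaks, 61.1% of the 18 beside far territory, led by Kcna5 (196), Kcnh7 (184) and Kcnj2 (166). Of 36 secreted growth factors and antagonists, 16 did, 69.6% of the 23 beside far territory and near the share of all genes, led by Rspo2 (181), Dkk2 (178) and Bmp4 (156). None of 27 housekeeping genes did, and 1 of them, Ywhaz, lay beside far territory.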

How the data were processed

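The authors deposited 5 peak lists on mm10, 1 relaxed list per library, 1 from both libraries together and 2 that passed their IDR filter (optimal and conservative). Per the file headers and the text files deposited beside the lists, each list derives from alignments set against a control alignment, with aligner, caller and versions not given in the sources used here. Signal values are the authors' own peak heights, with no scale stated, and medians are compared only within a list. The authors' q-value column is a score in these lists and was not used.

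Summits were placed against GENCODE M21 records and the GRCm38 genome from RefSeq. A library's own list is its 44533 strongest relaxed peaks, as many as the optimal list holds. Library signal at an optimal peak is that of the nearest relaxed summit, if it lies within 100 bp. Cores were matched to the 14-base CTCF core consensus, taken from general knowledge, on both strands with at most 2 mismatches, and far peaks with no core may hold other CTCF motif forms. Density uses known bases, whether or not reads can be aligned there.

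The members, gene lists and tests were chosen with earlier results of these data known. Genes named are those flanking the 15 strongest and 10 farthest far peaks and the 10 intervals with the most far peaks, the 3 genes per list with the strongest far peak, and 12 desert genes, some of which are not reported here; the other genes named were chosen after their values were seen. Pairs 50 to 500 kb apart were made the main orientation count after the data were seen. Peaks are not replicates, so tests run over the 2 libraries, and binomial intervals at 95% cover counting error only. Alternatives were the conservative list, each library left out, limits of 50 and 200 kb, all gene records, other mismatch limits, stronger peaks only and, added later, other pair gaps and antigen receptor segments as genes. Distances, the core search and a planted difference were tested on simulated data. Python 3.11.15, numpy 2.4.6 and pandas 2.3.3 were used.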

Additional observations from a re-analysis of the deposited data

How the results depend on the processing

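No result changed sign under any alternative run; 44 of 81 recomputed values moved by less than the SD between libraries, or for counts by under 1.5 times, and 37 moved more. Samples could not be paired between groups because all belong to 1 group, and far and other peaks were compared within each library. The limit of 50 kb, that of 200 kb and all gene records gave 5035, 1469 and 406 peaks, log2 density ratios of -2.04, -2.78 and -2.78, log2 signal ratios of -0.22, -0.40 and -0.45, log2 spacing ratios of 1.71, 2.91 and 2.78 (2.28 as defined), log2 occupancy ratios of -0.41, -0.72 and -0.79 (-0.55), and 2591, 855 and 511 flanking genes. With all gene records the core gap was 3.20 percentage points, 10.3% of far pairs were convergent and the gap to pairs with a record was -20.3 points (-13.8). The conservative list gave -0.39 for signal, 2.23 for spacing and -15.7 for that pair gap. Peaks at or above the median signal gave -0.21 for signal, and as pairs 12.8% convergent and a gap of -20.7. Core gaps were 0.748 with 1 mismatch and 1.02 with 3, and occupancy -1.51 with cores of up to 1 mismatch and -1.61 with up to 2. Gaps of 5 to 50 and 5 to 500 kb gave -3.41 and -6.74 for the pair gap. Antigen receptor segments counted as genes gave -0.38 for occupancy. Leaving out either library gave ranges of 2909 to 2971 peaks, -14.2 to -12.3 for the pair gap, 2.21 to 2.27 for spacing and -0.57 to -0.55 for occupancy. The cause of each move was not tested, beyond the smaller or larger territory that the limits define.

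Read depth is unknown, which leaves the counting error of signal values without an estimate. Beyond 1000 kb, 70 peaks and 22 perfect cores limit the precision. The libraries are labelled biological replicates but carry the same tissue and donor labels, so their agreement may not extend to other animals.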

Other observations

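A pair of intervals with strong far peaks is given here, chosen after the values were seen; others had medians as high. Between Camk1g and Plxna2, a plexin receptor of axon guidance, on chromosome 1, 11 far peaks had a median signal value of 170. From left to right they had 180, 199, 202, 64.6, 18.3, 121, 193, 170, 184, 29.6 and 23.2, so 7 were above 120 and 3 below 30. The eighth and the ninth of them lay 333 and 853 kb from Camk1g, with no optimal peak between. Between Sall1, a zinc finger factor of the kidney, and Tox3 on chromosome 8, 9 far peaks had a median of 140. Their values were 17.7, 148, 20.8, 176, 30.1, 155, 140, 221 and 29.8, so strong and weak sites were interspersed, and the weak ones were weak in both libraries (at most 22.3 in either). No optimal peak lay within 100 kb of either gene in that interval.

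The weakest far peaks had a signal value from 6.84, between Klf4 and Actl7b, to 8.23, between Klf14 and Mkln1. Of the 5 weakest, 1 had a relaxed peak in both libraries within 100 bp and 1 had a core, the one beside Klf14. Among the longest intervals, Tenm3 to Aga, 4668 kb long, held 10 far peaks with a median of 55.0, and Slc39a10 to Tmeff2, 4008 kb long, held 3 with a median of 58.9.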
